A study of Homo sapiens with 28 samples.

Results

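The genes described here are 38 glycolysis enzymes, glucose and lactate transporters, regulators of glycolytic flux and hypoxia target genes, chosen by name from the 30887 genes of a count table of Kelly cells. They were measured by RNA-seq 48 h after reverse transfection with 25 nM of a microRNA mimic, and each mimic was compared with a scrambled control mimic. Kelly is a human neuroblastoma cell line with amplified MYCN. A mimic is a synthetic double-stranded RNA that loads 1 mature microRNA into Argonaute. The 6 mimics were miR-99b-5p and miR-380-3p, described in most detail here, then miR-485-3p and miR-1283, and lastly miR-1915-3p and miR-100-3p. Each of these groups and the scrambled control had 4 libraries, all from Kelly cells grown in RPMI with serum. The labels describe no low-oxygen treatment. They also do not say whether libraries sharing a mimic were grown separately, so p-values measure the spread between these libraries, which may be technical. In bulk RNA from a culture, fewer cells expressing a gene and less RNA per cell cannot be told apart.

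Glycolysis turns glucose into pyruvate. Hexokinases trap glucose in the cell, phosphofructokinase commits it to the pathway, and lactate dehydrogenases convert pyruvate to lactate, which leaves through monocarboxylate transporters. Under low oxygen the alpha subunits of hypoxia-inducible factor (HIF) escape prolyl hydroxylation and degradation, pair with ARNT and bind a short core motif near target genes, among them most glycolysis genes, PDK1, BNIP3 and VEGFA. Neuroblastoma cells often express EPAS1, the gene of HIF-2 alpha, also in normal oxygen. MYC family proteins bind many of the same glycolysis genes through a partly overlapping motif.

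Libraries held 10992869 to 23296072 counts, with a median of 14999618. Of the 38 genes, 35 passed the filter on low counts and entered a test across 15058 genes. The other 3 were near or at 0: SLC2A3 had 1 count in 1 of 28 libraries and 0 in the rest, CA9 had 0 to 13 counts and ADM had 0 to 8 counts. Kelly markers were present in every library, with a summed level of 7400 to 13600 CPM (counts scaled to a common library size) over 10 genes including MYCN and DBH. Their sum was 11500 to 12500 CPM in the control. It was lower under miR-99b-5p (8050 to 10000 CPM), miR-380-3p (8640 to 10600 CPM) and miR-485-3p (7400 to 10100 CPM). The ranges under the other mimics overlapped that of the control. The summed markers of other cells were at most 13.4 CPM for fibroblasts, 3.92 CPM for endothelium, 3.88 CPM for epithelium and 1.32 CPM for the 1 of 3 immune markers with a row. Fibroblast markers, mostly COL1A1, differed with the mimic: their sum was 4 to 5.65 CPM under miR-99b-5p and 10.4 to 13.4 CPM under miR-380-3p, against 6.91 to 10.9 CPM in the control. The part of either marker set in the results was not tested. Mitochondrially encoded transcripts took 6.16 to 13.6% of counts, and their mean share was 11.4 ± 2.1% under miR-380-3p, against 9.43 ± 0.433% in the control (SD, n = 4 each).

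The mature mimic sequences show what each can pair with, through the seed (bases 2 to 8, in capitals), and no 2 of the 6 share a seed. The sequences are RefSeq's (GRCh38.p14), 5′ to 3′.
miR-99b-5p: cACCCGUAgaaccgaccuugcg
miR-380-3p: uAUGUAAUaugguccacaucuu
miR-485-3p: gUCAUACAcggcucuccucucu
miR-100-3p: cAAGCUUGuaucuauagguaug
miR-1915-3p: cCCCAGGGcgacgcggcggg
miR-1283: uCUACAAAggaaagcgcuuucu

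Heptamers complementary to these seeds were counted in the members' UTRs. In the longest annotated 3′ UTR (GENCODE v29, GRCh38), 1 of 35 tested members held a miR-99b-5p heptamer, 1 a miR-380-3p heptamer, 0 a miR-485-3p heptamer and 1 a miR-100-3p heptamer, while 8 held a miR-1915-3p and 4 a miR-1283 heptamer. Over all 12532 tested genes with a UTR the shares were 1.26%, 15%, 14.3%, 10.5%, 23.1% and 20.8% in the same order. PDK1 holds both the miR-99b-5p and the miR-380-3p heptamer. Its UTR also holds 4 miR-1283 heptamers, and PDK1 was not called under miR-1283. It averaged 77 ± 9.42 CPM there, against 67.9 ± 11 CPM in the control (SD, n = 4 each). The miR-380-3p site lies at chr2:172598392-172598398 on the plus strand (GRCh38), is followed by an A, and is the only such heptamer among the members that fell under that mimic. The miR-99b-5p site lies at chr2:172601303-172601309. Both are shown with 8 bases on each side and the heptamer in capitals, because PDK1 moved in opposite directions under these mimics.
PDK1 site of miR-380-3p: gacagaatATTACATacaaaaat
PDK1 site of miR-99b-5p: gctaaagtTACGGGTttatttta
The sites are at bases 2423 and 5334 of a 12700-base UTR. The gene length deposited for PDK1, 4840 nt, is shorter than that UTR, so how much of it these cells use is not known from the files.

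Promoter windows of 300 bases (250 before to 50 after a start, RefSeq, GRCh38.p14) were searched for the HIF-binding core ACGTG or GCGTG on either strand. The core ACGTG overlaps the E-box CACGTG. Of 30 tested members with a window, 28 (93.3%) held a core and 20 (66.7%) held ACGTG, against 70.4% and 32.5% of 10865 other tested genes. Among genes with 1 listed start the shares were 88.9% and 55.6% of 18 members, against 65% and 27.6% of 7735 others. Many members are in the set because they are known HIF targets, so this describes the choice of genes. Over all 35116 windows, 48.4% held a core, 21.4% ACGTG and 7.26% CACGTG; 9 members held CACGTG. SLC2A3, SLC16A1, PFKFB2, VEGFA, BNIP3L and NDRG1 have no window in the table used. Windows are printed for SLC2A1, PDK1 and BNIP3, the 3 members that rose under miR-99b-5p and fell under miR-380-3p, with cores on either strand in capitals (a core on the other strand reads CACGT or CACGC).
SLC2A1, chr1:42958819-42959118, minus strand: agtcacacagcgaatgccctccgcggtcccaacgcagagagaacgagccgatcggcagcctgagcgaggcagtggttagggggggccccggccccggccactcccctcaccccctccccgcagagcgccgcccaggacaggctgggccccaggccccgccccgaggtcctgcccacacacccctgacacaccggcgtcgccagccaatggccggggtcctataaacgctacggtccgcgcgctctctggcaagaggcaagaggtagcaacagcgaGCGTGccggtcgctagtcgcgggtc
PDK1, chr2:172555840-172556139, plus strand: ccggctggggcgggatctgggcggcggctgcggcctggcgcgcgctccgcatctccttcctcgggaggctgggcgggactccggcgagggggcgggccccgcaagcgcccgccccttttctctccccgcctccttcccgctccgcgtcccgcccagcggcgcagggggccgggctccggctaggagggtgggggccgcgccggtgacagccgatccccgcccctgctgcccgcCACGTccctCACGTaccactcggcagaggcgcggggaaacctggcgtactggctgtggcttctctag
BNIP3, chr10:131981874-131982173, minus strand: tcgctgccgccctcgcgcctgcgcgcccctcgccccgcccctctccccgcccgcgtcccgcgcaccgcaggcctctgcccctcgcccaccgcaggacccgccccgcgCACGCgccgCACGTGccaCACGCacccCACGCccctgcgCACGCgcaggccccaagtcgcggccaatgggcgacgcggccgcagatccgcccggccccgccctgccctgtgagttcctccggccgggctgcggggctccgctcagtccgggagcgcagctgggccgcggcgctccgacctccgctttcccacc
With the first base of the gene counted as 1 and no base counted as 0, SLC2A1 has 1 GCGTG at 26. PDK1 has 2 ACGTG cores on the other strand at -17 and -8, and none at its other listed start. BNIP3 has 5 capital stretches between -143 and -104, 1 of them a CACGTG. At least 5 stretches occur in 0.994% of all windows, which include those of genes not tested here.

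In the scrambled control GAPDH was by far the most abundant of these genes. Per kb of deposited gene length, GAPDH stood at 4098 ± 190 CPM per kb (SD, n = 4), above LDHB at 1006 ± 62.6, ENO1 at 868 ± 49.8 and TPI1 at 844 ± 42.6 CPM per kb. ENO1 and TPI1 did not differ beyond their spread, nor did ALDOA at 619 ± 75 and PKM at 577 ± 26 CPM per kb. PFKFB2 at 1.84 and PFKFB3 at 1.22 CPM per kb were the lowest of the tested members. The 38 genes together took 1.605 ± 0.067% of all counts under miR-99b-5p and 1.338 ± 0.118% under miR-380-3p, against 1.451 ± 0.0796% in the control (SD, n = 4 each, no test). GAPDH, PGK1, PGAM1, ENO1, TPI1, ALDOA, PKM and the LDH genes have processed pseudogenes, and how reads shared with those copies were assigned is not given in the sources used here.

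**Figure D1:**
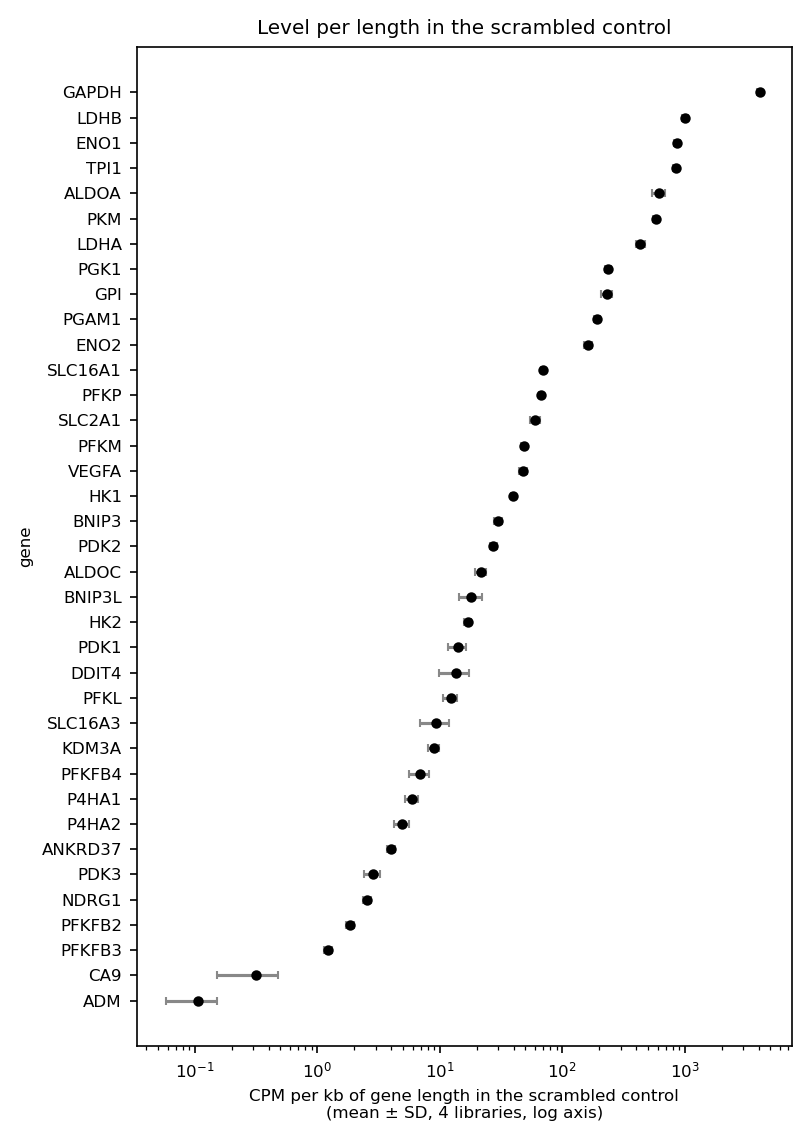
Level of each detected member in the scrambled control, as CPM per kb of deposited gene length on a log axis (points are means, bars SD, 4 libraries). GAPDH stands highest at 4098 CPM per kb, and CA9 and ADM, which did not pass the filter, lie at the bottom.

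Under miR-99b-5p more members rose than fell, and under miR-380-3p every called member fell. SLC2A1, PDK1 and BNIP3 were called under both mimics, higher under miR-99b-5p and lower under miR-380-3p, and the greatest rise was that of PFKFB3 under miR-99b-5p. Calls required an adjusted p under 0.05 (edgeR quasi-likelihood test, two-sided, Benjamini-Hochberg over all genes tested). Under miR-99b-5p, 10 of 35 tested members rose and 1 fell, 31.4% of them, against 16.6% of all genes called (8.11% higher, 8.48% lower). The median log2 change of the members was 0.16, against -0.003 over all genes. Under miR-380-3p, 0 rose and 8 fell, 22.9% of them, against 10.9% of all genes (5.6% higher, 5.25% lower), and the median log2 change was -0.18, against -0.003. Under miR-485-3p, 7 rose and 2 fell, 25.7%, against 21.1% of all genes (10.5% higher, 10.6% lower), with medians of 0.08 and 0.02. Under miR-100-3p, 1 rose and 1 fell, 5.71%, against 5.96% of all genes (2.9% higher, 3.05% lower), with medians of -0.01 and -0.01. The shares called in either direction for miR-485-3p and miR-100-3p are near their background. By direction, 20% of members were higher and 5.71% lower under miR-485-3p, against 10.5% and 10.6% of all genes. Under miR-1915-3p and miR-1283, with 0 members called, the median log2 changes were also above those of all genes. They were 0.07 and 0.10, against 0.002 and -0.01. All 6 comparisons share the 4 control libraries, so their values are not independent of each other.

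Of the 35 tested members, 17 were called under no mimic, among them GPI, ALDOA, TPI1, GAPDH, PGAM1, PKM, LDHA and LDHB. Their log2 changes lay between -0.41 (DDIT4 under miR-380-3p) and 0.47 (P4HA1 under miR-99b-5p). The counts of calls depended on single libraries. Without scrambled control replicate 5, or without replicate 4, 6 members were called under miR-99b-5p. Without miR-380-3p replicate 3 or 4 the count under that mimic was 4, and without control replicate 1 or 2 it was 5. Without miR-485-3p replicate 3, 5 members were called under miR-485-3p. A slope of log2 level on GC content was fitted for each library, since libraries can differ in their recovery of GC-rich genes. It averaged -0.782 ± 1.08 log2 units per unit of GC fraction under miR-99b-5p, against 0.515 ± 0.712 in the control, and with it as a covariate 18 members were called under miR-99b-5p, 17 of them higher. With the 3 libraries above 12% mitochondrial counts left out, of which 2 are miR-380-3p libraries, 5 members were called under miR-380-3p.

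**Figure D2:**
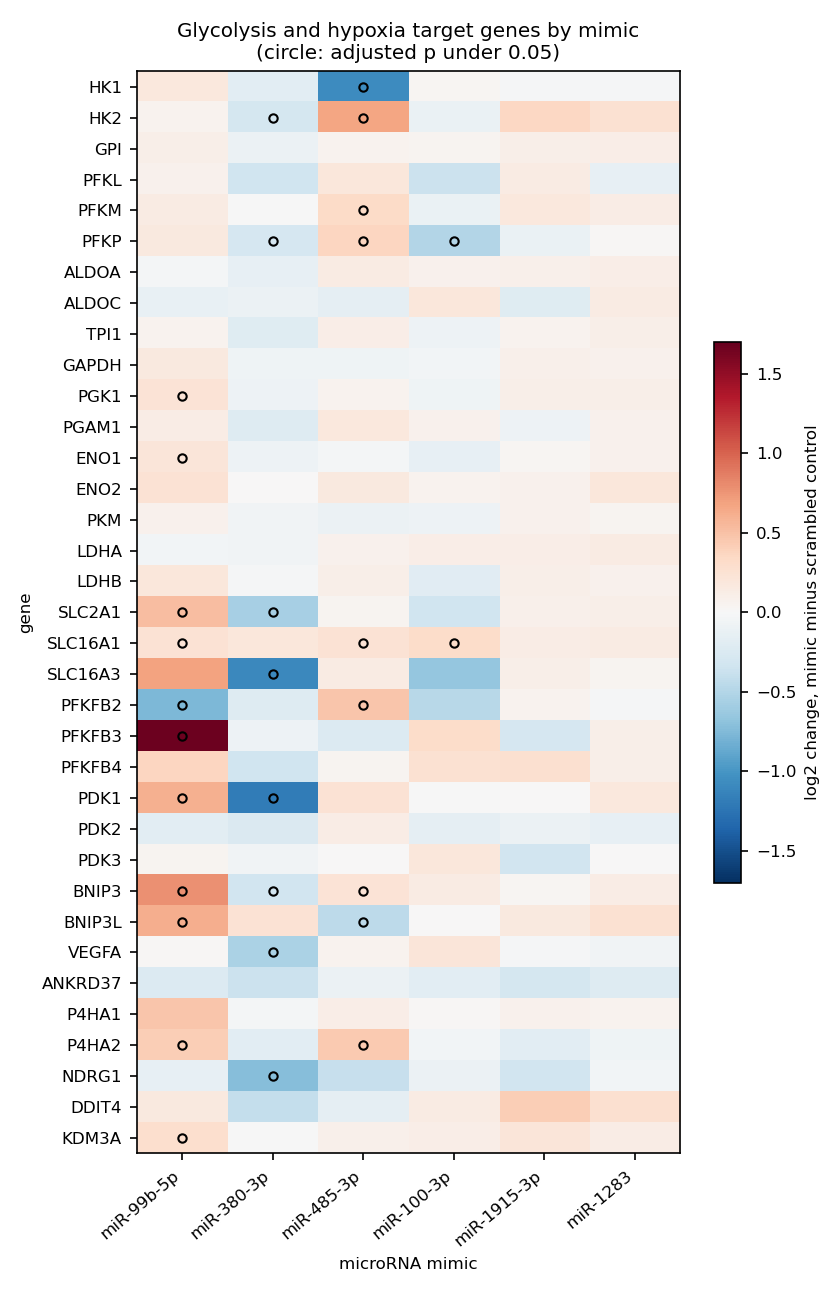
Log2 change of the 35 tested members (down the page) under each mimic (across), mimic minus scrambled control, from red (higher) to blue (lower). Circles mark an adjusted p under 0.05: 10 higher and 1 lower under miR-99b-5p, 8 lower under miR-380-3p, 7 higher and 2 lower under miR-485-3p, 1 of each under miR-100-3p and none in the last pair of columns.

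Among the transporters, the glucose carrier SLC2A1 (GLUT1; ENSG00000117394, chr1:42925375-42959176, minus strand, GRCh38) rose under miR-99b-5p and fell under miR-380-3p. It had 215, 251, 253 and 226 CPM in the miR-99b-5p libraries and 117, 139, 104 and 84.1 CPM in the miR-380-3p libraries, against 166, 179, 169 and 145 CPM in the control libraries. Every miR-99b-5p library lay above every control library and every miR-380-3p library below. The change was 0.52 ± 0.15 SE on the log2 scale under miR-99b-5p (adjusted p = 0.0155), a call not made without control replicate 5 (log2 0.47). Under miR-380-3p it was -0.57 ± 0.15 SE (adjusted p = 0.0129), a call not made without miR-380-3p replicate 4 (log2 -0.45), the library with the lowest SLC2A1 and the highest mitochondrial share, 13.6%, nor with the mitochondrial share as a covariate (log2 -0.48).

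SLC16A3 (MCT4), the lactate exporter of highly glycolytic cells, fell under miR-380-3p. It had 20.3, 18.5, 21.6 and 43.9 CPM under miR-99b-5p and 8.11, 12, 6.48 and 4.02 CPM under miR-380-3p, against 13.6, 21.1, 18.5 and 11.6 CPM in the control. The highest miR-380-3p library overlapped the lowest control library, and 1 miR-99b-5p library, replicate 7, stood far above the other 3. Under miR-380-3p the log2 change was -1.09 ± 0.32 SE (adjusted p = 0.0274), which did not pass without miR-380-3p replicate 3 or 4 or control replicate 2 or 4, with log2 changes of -1.02, -0.87, -0.94 and -1.02 in that order, nor with the mitochondrial share as a covariate (log2 -1.07) or without the 3 libraries above 12% mitochondrial counts (log2 -1.15). Under miR-99b-5p its log2 change of 0.69 ± 0.30 SE did not pass (adjusted p = 0.12). It was called in 1 of 18 alternatives, with the GC slope as a covariate (log2 0.98). Over the alternatives its log2 change under miR-99b-5p ran from 0.21 to 0.98. SLC16A1 (MCT1), which carries lactate and pyruvate both ways, rose under 3 mimics, to 317 ± 14.4 CPM under miR-99b-5p, 318 ± 39.1 CPM under miR-485-3p and 332 ± 16.6 CPM under miR-100-3p, against 268 ± 8.26 CPM in the control (SD, n = 4 each). The log2 changes were 0.25, 0.25 and 0.31, and all 12 of these mimic libraries lay above the 4 control libraries. The miR-99b-5p call was lost without its replicate 2 or control replicate 4 (log2 0.23 each), and the miR-485-3p call without its replicate 3 (log2 0.15). The miR-485-3p call was also lost with no filter on low counts and with only the 8 libraries compared (log2 0.23 each).

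The hexokinases separated under miR-485-3p. HK1 (ENSG00000156515, chr10:69269984-69401884, plus strand, GRCh38), the housekeeping form bound to mitochondria, had 68.5, 69.5, 51.4 and 72.1 CPM in the miR-485-3p libraries, against 138, 141, 130.4 and 138 CPM in the control. HK2 (ENSG00000159399, chr2:74833981-74893359, plus strand, GRCh38), the inducible form typical of tumours, had 148, 140.3, 157 and 133 CPM under miR-485-3p, against 92.5, 97, 83.6 and 90.2 CPM in the control. Every miR-485-3p library was below every control library for HK1 and above every control library for HK2. HK1 fell (log2 change -1.07 ± 0.08 SE, adjusted p = 5.70e-11) and HK2 rose (log2 change 0.67 ± 0.09 SE, adjusted p = 7.95e-06). The ratio of HK1 to HK2 per length was 0.709 ± 0.144 under miR-485-3p, against 2.34 ± 0.0705 in the control (SD, n = 4 each), a ratio chosen after the values were seen and not tested. HK1 carries no miR-485-3p heptamer in its 749-base 3′ UTR and none in the 3086 bases before it; 1 match to bases 2 to 7 of the microRNA lies in the UTR.

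HK2 also fell under miR-380-3p. It had 84.9, 72.5, 73.5 and 65.7 CPM in those libraries, of which the highest overlapped the lowest control library. Its log2 change was -0.29 ± 0.09 SE (adjusted p = 0.0451), and the call was lost without any 1 of miR-380-3p replicates 2, 3 and 4 and control replicates 1, 2 and 5, with log2 changes of -0.24 to -0.30. It was also lost with the mitochondrial share as a covariate (log2 -0.22) and without the 3 libraries above 12% mitochondrial counts (log2 -0.19). With no filter on low counts it was lost too (log2 -0.30). Under miR-1915-3p and under miR-1283, HK2 had the smallest p of the members, without a call. Its levels were 123, 114, 121 and 108 CPM under miR-1915-3p and 114, 119.6, 103 and 97.4 CPM under miR-1283. All 8 of these libraries lay above the 4 control libraries, with log2 changes of 0.36 (adjusted p = 0.149) and 0.26 (adjusted p = 1).

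Of the phosphofructokinase subunits, which catalyse the committed step, PFKP and PFKM rose under miR-485-3p and PFKP fell under miR-380-3p and miR-100-3p. PFKP (platelet type; ENSG00000067057, chr10:3066333-3137712, plus strand, GRCh38) had 175, 184, 147 and 156 CPM under miR-485-3p and 92.9, 109, 101 and 118 CPM under miR-380-3p. It had 88.7, 94.1, 91.8 and 88.7 CPM under miR-100-3p, against 132, 129, 126 and 126 CPM in the control. None of the 3 mimic groups overlapped the control, whose 4 libraries lay close together. The log2 changes were 0.36 ± 0.08 (adjusted p = 0.00274), -0.29 ± 0.09 (adjusted p = 0.027) and -0.50 ± 0.09 SE (adjusted p = 4.29e-04). The miR-380-3p call was lost without its replicate 1 or 3 or control replicate 1 or 2, with log2 changes of -0.23 to -0.29. PFKM (muscle type) averaged 173 ± 5.77 CPM under miR-485-3p, against 138 ± 6.46 CPM in the control (log2 change 0.33 ± 0.06 SE, adjusted p = 3.50e-04). PFKL (liver type), the least abundant of these subunits, was called under no mimic and averaged 37.2 ± 7.37 CPM under miR-485-3p, against 32.7 ± 4.46 CPM in the control.

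The PFKFB enzymes make and remove fructose 2,6-bisphosphate, the strongest activator of phosphofructokinase, and PFKFB3 is the form whose kinase activity most exceeds its phosphatase activity. PFKFB3 (ENSG00000170525, chr10:6144934-6254644, plus strand, GRCh38) had 17.9, 14, 13.3 and 21.9 CPM in the miR-99b-5p libraries, against 5.29, 5.02, 5.8 and 5.06 CPM in the control. The lowest miR-99b-5p library was more than 2-fold above the highest control library. This log2 change, 1.66 ± 0.17 SE (adjusted p = 5.02e-08), had the greatest size of any called member under any mimic. PFKFB2 moved the other way under the same mimic. It had 8.35, 4.96, 7.46 and 8.23 CPM under miR-99b-5p and 16.5, 15.2, 21.4 and 14.5 CPM under miR-485-3p, against 11.9, 12.7, 11.2 and 13.2 CPM in the control. All 4 miR-99b-5p libraries lay below the control and all 4 miR-485-3p libraries above. It fell under miR-99b-5p (log2 change -0.77 ± 0.16 SE, adjusted p = 0.00155) and rose under miR-485-3p (log2 change 0.47 ± 0.16 SE, adjusted p = 0.0352), where the call was lost without miR-485-3p replicate 1 or 3 or control replicate 1, 2 or 4, with log2 changes of 0.31 to 0.48. The miR-485-3p call was also lost with no filter on low counts, a replicate block or the mitochondrial share as a covariate (log2 0.36 to 0.45). The ratio of PFKFB3 to PFKFB2 per length was 3.62 ± 0.737 under miR-99b-5p, against 0.668 ± 0.0933 in the control (SD, n = 4 each, chosen after the values were seen and not tested). PFKFB4 averaged 24.1 ± 5.01 CPM under miR-99b-5p, against 18.7 ± 3.49 CPM in the control, and did not pass the test (log2 0.36, adjusted p = 0.122).

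**Figure D3:**
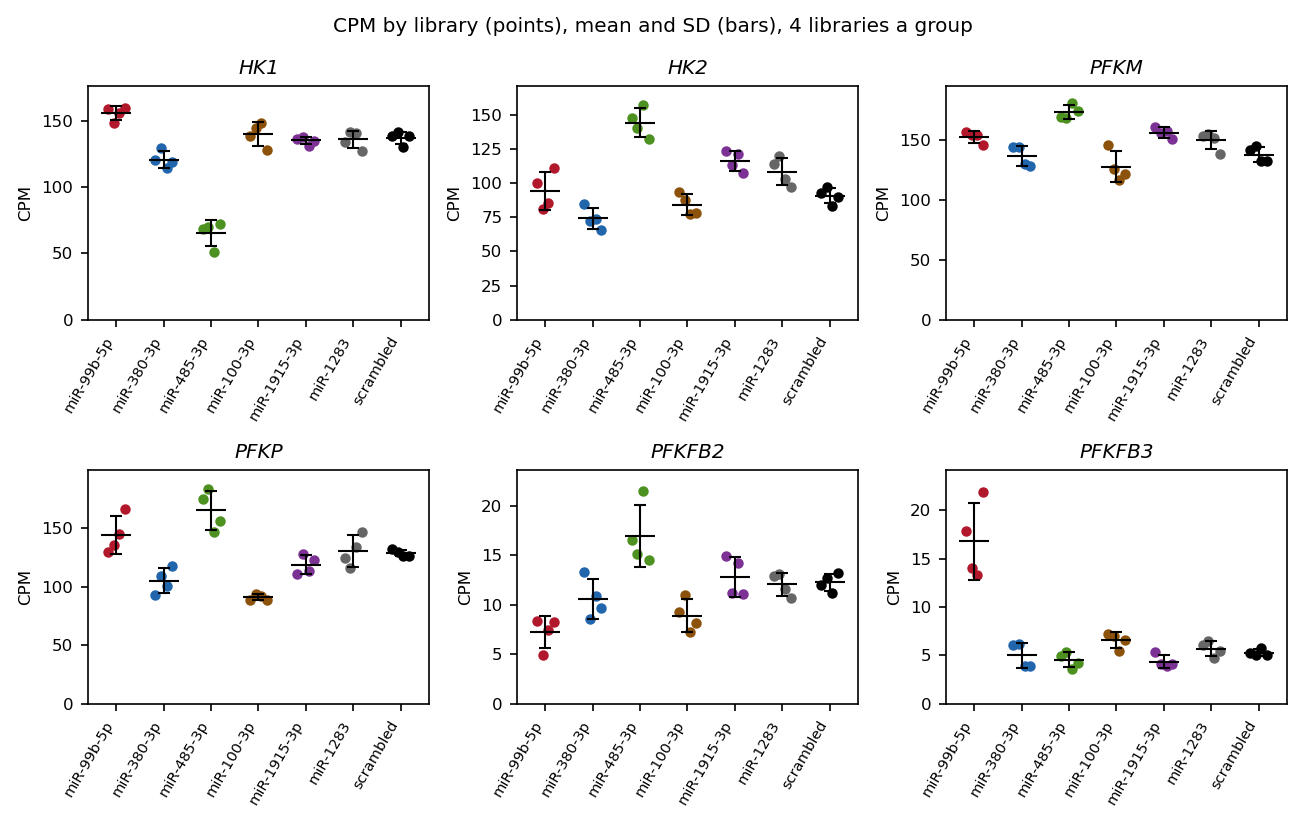
CPM of both hexokinases, a pair of phosphofructokinase subunits and a pair of PFKFB enzymes in every library (points) by group, with mean and SD (bars), 4 libraries a group, the control at the right. HK1 drops to 65.4 CPM under miR-485-3p where HK2 reaches 144 CPM, and PFKFB3 reaches 16.8 CPM under miR-99b-5p.

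In the later steps of the pathway and at lactate, few genes passed the test. Under miR-99b-5p, PGK1, the first ATP-forming step, averaged 470 ± 5.92 CPM, against 399 ± 23 CPM in the control (log2 0.24, adjusted p = 0.0235), and its call was lost without control replicate 4 or 5 (log2 0.23 and 0.20). ENO1, an enolase, averaged 1777 ± 55 CPM under miR-99b-5p, against 1535 ± 88.1 CPM in the control (log2 0.21, adjusted p = 0.0484). The PGK1 call was also lost with no filter on low counts (log2 0.25). ENO1 did not pass without control replicate 1, 4 or 5 or any miR-99b-5p library, with log2 changes of 0.17 to 0.23. Nor did ENO1 pass with RLE scaling, no filter on low counts, a mean CPM of at least 5 or a replicate block (log2 0.19 to 0.23). Leaving out the 3 libraries with the steepest GC slope lost it too (log2 0.22). No gene of these steps passed under another mimic. LDHB averaged 1500 ± 136 CPM under miR-99b-5p and 1286 ± 83.4 CPM under miR-380-3p, against 1308 ± 81.4 CPM in the control, and LDHA 554 ± 39.8 CPM and 547 ± 27.1 CPM, against 571 ± 47.3 CPM. For GAPDH the means were 5560 ± 402 CPM, 4672 ± 441 CPM and 4933 ± 229 CPM in the same order. These differences from the control were within the overlap of the libraries and were not called.

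PDK1 (ENSG00000152256, chr2:172555373-172608669, plus strand, GRCh38) phosphorylates pyruvate dehydrogenase and so keeps pyruvate out of the mitochondrial cycle. It had 101, 91.8, 94.9 and 124 CPM in the miR-99b-5p libraries and 37.9, 29.3, 25.9 and 26.7 CPM in the miR-380-3p libraries, against 72.1, 80.8, 63.5 and 55.2 CPM in the control. The 3 groups did not overlap. PDK1 rose under miR-99b-5p (log2 change 0.60 ± 0.13 SE, adjusted p = 0.00119) and fell under miR-380-3p (log2 change -1.18 ± 0.13 SE, adjusted p = 5.59e-07), the greatest fall of any member under any mimic, and both calls held under all 18 alternatives, among them leaving out each library in turn. This is the gene with the miR-380-3p heptamer followed by an A printed above. Of all tested genes with a miR-380-3p heptamer 14.6% were called lower under that mimic, against 4.13% of those without. Of those with a miR-99b-5p heptamer 40.5% were called lower under miR-99b-5p, against 8.87% of those without, and PDK1 was not among them. Whether either mimic acts on PDK1 through its heptamer was not tested. The other kinases of this family, PDK2 and PDK3, were not called under any mimic; PDK2 averaged 29.8 ± 2.28 CPM and 28.4 ± 2.87 CPM under miR-99b-5p and miR-380-3p, against 33.7 ± 2.14 CPM in the control.

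BNIP3 (ENSG00000176171, chr10:131966455-131982013, minus strand, GRCh38), a mitophagy receptor and a much used HIF readout, had the smallest p of the members under miR-99b-5p. It had 146, 135, 143 and 151 CPM under miR-99b-5p and 68.8, 73.3, 63.1 and 63.4 CPM under miR-380-3p, against 87.8, 91.7, 80.7 and 76.5 CPM in the control. Again the groups did not overlap, miR-99b-5p above and miR-380-3p below. The changes were 0.77 ± 0.07 (adjusted p = 5.42e-09) and -0.33 ± 0.07 SE (adjusted p = 0.00224) on the log2 scale, and both held under all 18 alternatives. Under miR-485-3p BNIP3 rose to 98.5 ± 7.62 CPM (SD, n = 4; log2 0.23, adjusted p = 0.0189), with groups that overlapped and a call lost without miR-485-3p replicate 1 or 3 or control replicate 4 or 5 (log2 0.17 to 0.22). That call was also lost with no filter on low counts or with only the 8 libraries compared (log2 0.21 each). Leaving out the 3 libraries with the steepest GC slope lost it too (log2 0.20). BNIP3L (NIX), the paralog of BNIP3 and also a mitophagy receptor, had 66, 56, 67.8 and 57.8 CPM under miR-99b-5p and 31.9, 29.3, 29 and 28.6 CPM under miR-485-3p, against 43.1, 50.1, 38.4 and 29.9 CPM in the control. The miR-99b-5p libraries lay above the control, and the miR-485-3p libraries lay below all but the lowest control library. BNIP3L rose under miR-99b-5p (log2 change 0.62 ± 0.11 SE, adjusted p = 2.70e-04) and fell under miR-485-3p (log2 change -0.44 ± 0.11 SE, adjusted p = 0.00629), where the call was lost with only the 8 libraries compared in the fit (log2 -0.46). Under miR-380-3p it averaged 47.8 ± 3.58 CPM and was not called (log2 0.25, adjusted p = 0.176), so the paralogs were not both called under that mimic; the difference between them was not tested.

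VEGFA (ENSG00000112715, chr6:43770184-43786487, plus strand, GRCh38), the angiogenic growth factor, fell under miR-380-3p. It had 119.6, 109, 103 and 115 CPM under miR-99b-5p and 77.2, 80.04, 76.6 and 69.96 CPM under miR-380-3p, against 116, 112, 113 and 98.8 CPM in the control. All 4 miR-380-3p libraries lay below the control, while the miR-99b-5p libraries overlapped it. The log2 change under miR-380-3p was -0.53 ± 0.07 SE (adjusted p = 3.74e-06) and held under all 18 alternatives. Under miR-99b-5p it was 0.02 ± 0.07 SE (adjusted p = 0.855). NDRG1, a stress-responsive gene, had 3.89, 3.06, 3.49 and 2.33 CPM under miR-380-3p, against 5, 5.78, 4.97 and 5.2 CPM in the control. These low levels did not overlap (log2 change -0.72 ± 0.22 SE, adjusted p = 0.036), but the call was lost without any 1 of 7 of the 8 libraries compared, miR-380-3p replicate 1 being the exception, with log2 changes of -0.59 to -0.78. It was also lost with the mitochondrial share as a covariate (log2 -0.74) and without the 3 libraries above 12% mitochondrial counts (log2 -0.50).

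The collagen prolyl hydroxylase gene P4HA2 rose to 15.8 ± 1.3 CPM under miR-99b-5p and 16 ± 1.22 CPM under miR-485-3p, against 11.8 ± 1.58 CPM in the control (log2 0.42 and 0.44). The miR-99b-5p call was lost without its replicate 3 or 7 or control replicate 1, 4 or 5 (log2 0.36 to 0.44), and the miR-485-3p call without its replicate 1 or 3 or control replicate 1 or 5 (log2 0.38 to 0.42). The miR-485-3p call was also lost without the 3 libraries with the steepest GC slope (log2 0.39). The paralog P4HA1 averaged 22.3 ± 6.24 CPM under miR-99b-5p, against 16.1 ± 2 CPM in the control, and was not called (log2 0.47, adjusted p = 0.0692). KDM3A, a histone demethylase gene, rose to 41.7 ± 4.88 CPM under miR-99b-5p, against 34 ± 3.77 CPM in the control (log2 0.29, adjusted p = 0.0278), a call lost without miR-99b-5p replicate 2 or 7 or control replicate 4 or 5 (log2 0.23 to 0.26). The KDM3A call was also lost with no filter on low counts or with only the 8 libraries compared (log2 0.31 and 0.29). A replicate block, or leaving out the 3 libraries with the steepest GC slope, lost it too (log2 0.25 each). DDIT4, an inhibitor of mTORC1, and ANKRD37 were called under no mimic. DDIT4 averaged 26.2 ± 4.85 CPM under miR-99b-5p and 17.7 ± 2.98 CPM under miR-380-3p, against 23.4 ± 6.5 CPM in the control, where single libraries spanned 16.3 to 32 CPM.

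**Figure D4:**
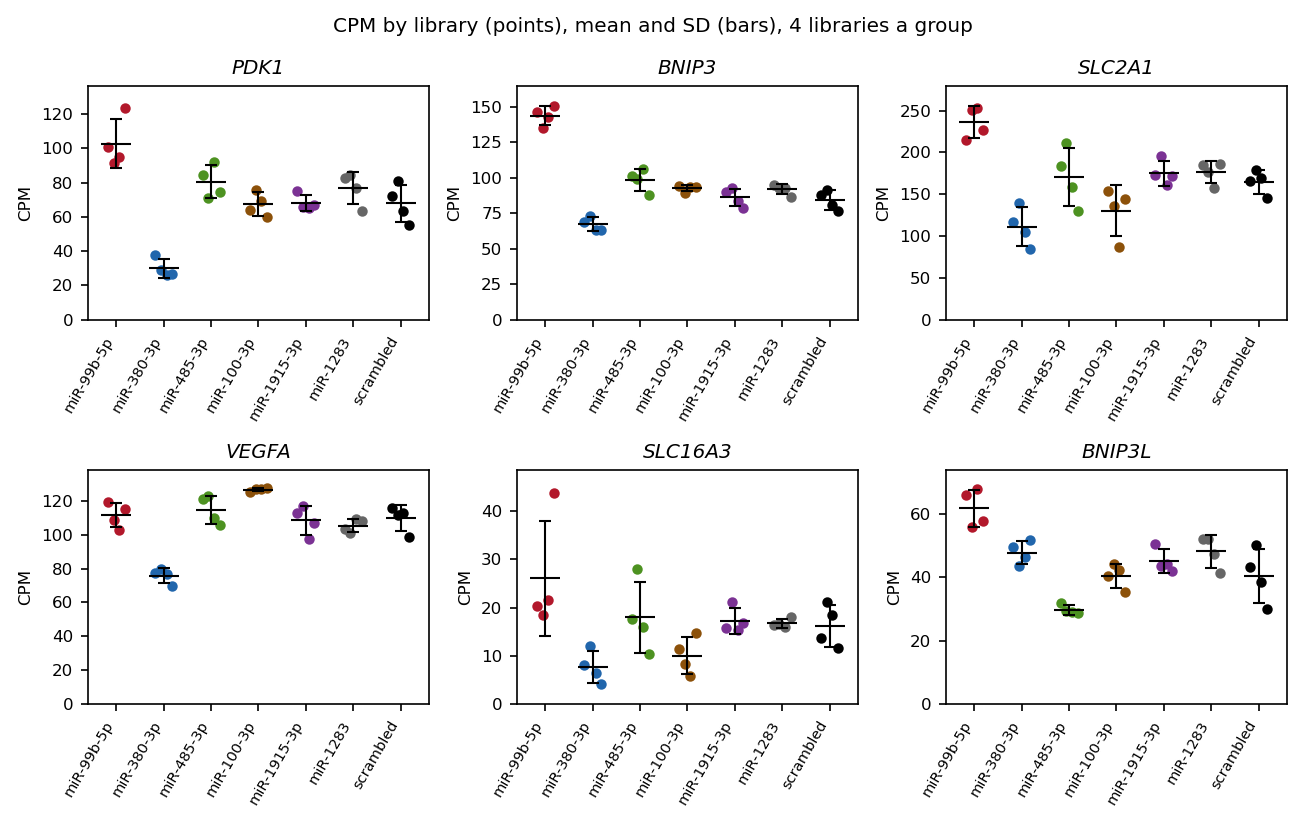
CPM of 6 members in every library (points) by group, with mean and SD (bars), 4 libraries a group, the control at the right. PDK1, BNIP3 and SLC2A1 lie above the control under miR-99b-5p and below it under miR-380-3p, and all 4 miR-380-3p libraries of VEGFA lie below the control.

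The miR-99b-5p and miR-380-3p libraries were also compared with each other, since a call under each does not test their difference. Under miR-99b-5p against miR-380-3p, 20 of 35 members were higher and 1, PFKFB2, was lower, 60% of them, against 24% of all genes called (11.7% higher, 12.2% lower). The median log2 difference was 0.32, against -0.009 over all genes, and 5 members differed by at least 2-fold: PDK1 (1.78), SLC16A3 (1.78), PFKFB3 (1.75), BNIP3 (1.10) and SLC2A1 (1.09). This contrast was chosen with the opposite directions already known. It reached common enzymes too: PGK1 averaged 470 ± 5.92 CPM under miR-99b-5p, against 376 ± 30.8 CPM under miR-380-3p (adjusted p = 0.0014), and ENO1 1777 ± 55 CPM, against 1442 ± 121 CPM (adjusted p = 0.003). PFKFB4, uncalled against the control, averaged 24.1 ± 5.01 CPM under miR-99b-5p, against 14.8 ± 2.33 CPM under miR-380-3p (log2 0.71, adjusted p = 0.00151). SLC16A1, PKM and LDHA were not called in it. Of the 21 calls, 12 held under all 18 alternatives: HK1, PFKP, PGK1, ENO1, SLC2A1, SLC16A3, PFKFB3, PFKFB4, PDK1, BNIP3, VEGFA and P4HA2. Without 1 library, PFKFB2 was lost (miR-99b-5p replicate 3, log2 -0.39, or miR-380-3p replicate 1, log2 -0.43), as were BNIP3L (miR-99b-5p replicate 4, log2 0.32, or miR-380-3p replicate 2, log2 0.33) and PGAM1 (miR-380-3p replicate 4, log2 0.25). GAPDH, LDHB, P4HA1, DDIT4 and KDM3A were each lost without any 1 of at least 4 libraries. With the mitochondrial share as a covariate, 14 members were called, 13 of them higher.

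**Figure D5:**
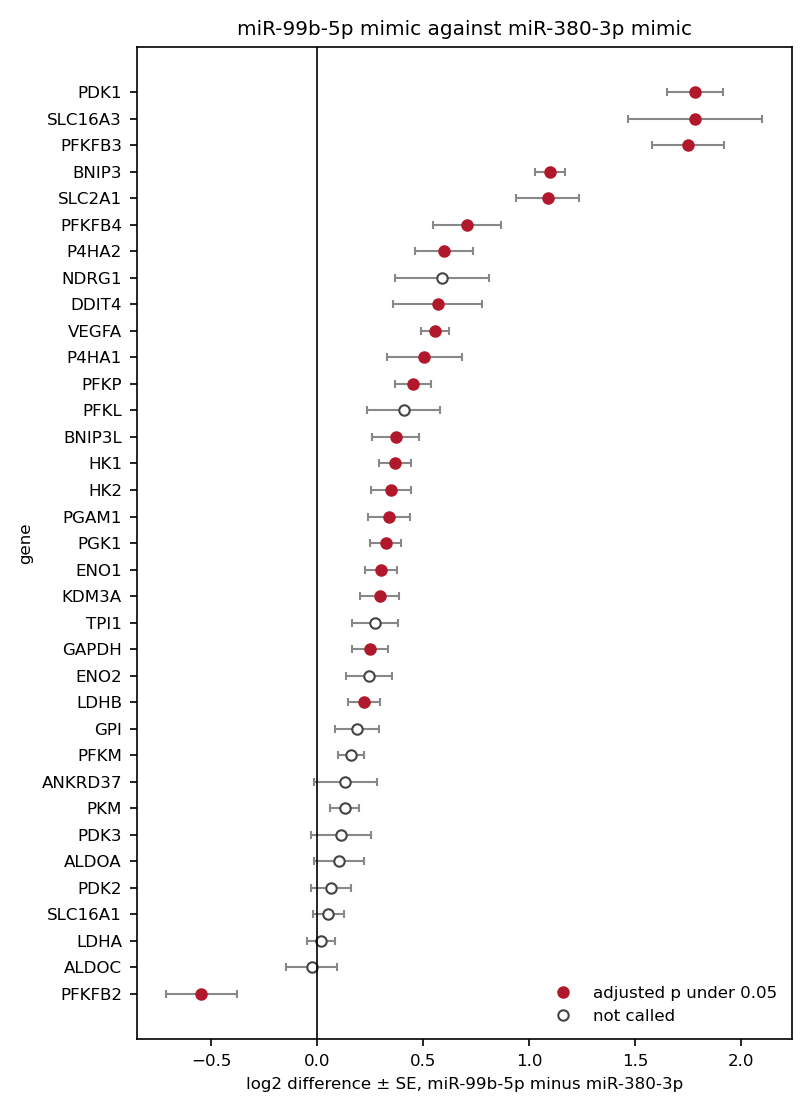
Log2 difference ± SE between the miR-99b-5p and miR-380-3p mimics for the 35 tested members, ordered by size, positive where miR-99b-5p is higher. Filled points mark an adjusted p under 0.05, 20 to the right of 0 and 1 (PFKFB2) to the left.

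Under miR-1915-3p, edgeR called 0 members, against 0.246% of all genes (0.0133% higher, 0.232% lower). Under miR-1283 it also called 0, against 0.0199% of all genes, all of them lower. At an unadjusted p under 0.05 there were 5 of 35 members under miR-1915-3p, 3 higher and 2 lower. Under miR-1283 there were 3 of 35, all higher. Over all 15058 genes the shares were smaller, 956 genes (6.35%) under miR-1915-3p and 453 genes (3.01%) under miR-1283. DESeq2 also called 0 members under each. HK2 was called under miR-1915-3p in 3 alternatives, when only the 8 libraries compared were fitted, with a replicate block and with the GC slope as a covariate. Under miR-100-3p the 2 calls were PFKP and SLC16A1, both held under all 18 alternatives, and VEGFA, at 126, 127, 127 and 128 CPM, lay above the control without passing (log2 0.21, adjusted p = 0.0652). DESeq2 called VEGFA, and its adjusted p ran from 0.0142 to 0.284 over 18 alternatives.

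Among the HIF subunits and their regulators, 9 tested genes of a list of 10, 3 rose and 2 fell under miR-99b-5p, where 16.6% of all genes were called. EPAS1, coding for HIF-2 alpha, averaged 185 ± 58.3 CPM under miR-99b-5p and 759 ± 19.2 CPM under miR-380-3p, against 756 ± 17.8 CPM in the control (SD, n = 4 each). It fell under miR-99b-5p (log2 change -2.03 ± 0.12 SE, adjusted p = 3.14e-12) and was not called under the other mimics. HIF1A, coding for HIF-1 alpha, rose to 716 ± 20.8 CPM under miR-99b-5p, against 451 ± 31.7 CPM in the control (log2 change 0.67 ± 0.12 SE, adjusted p = 1.82e-04), and stood at 409.6 ± 46.2 CPM under miR-380-3p without a call. The partner subunit gene ARNT rose under miR-99b-5p (log2 0.33), miR-380-3p (log2 0.27) and miR-100-3p (log2 0.23). HIF1AN, whose product limits HIF activity by asparagine hydroxylation, rose under miR-99b-5p (log2 0.29) and miR-485-3p (log2 0.24). The prolyl hydroxylase gene EGLN3, itself a HIF target and on both lists, fell under miR-99b-5p (log2 -0.66), a call lost without miR-99b-5p replicate 3 or 4 or control replicate 2, and VHL, of the ligase that degrades HIF alpha, rose under miR-380-3p (log2 0.25) and miR-485-3p (log2 0.34). MYCN, the amplified oncogene of the line, fell under miR-99b-5p (log2 -0.56), miR-380-3p (log2 -0.32) and miR-1915-3p (log2 -0.40) and rose under miR-100-3p (log2 0.34). Of these calls, those of ARNT under miR-100-3p, HIF1AN under miR-485-3p, VHL under miR-380-3p and MYCN under miR-1915-3p were lost when single libraries were left out, while the EPAS1 and HIF1A calls held under all 18 alternatives. The part of these regulators in the members' changes was not tested.

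Genes of neighbouring pathways, on lists written with earlier results of these data known, moved unevenly. Of 36 tested other HIF targets out of 38, 12 rose and 3 fell under miR-99b-5p, 2 rose and 5 fell under miR-380-3p, 6 rose and 3 fell under miR-485-3p, and 3 rose and 1 fell under miR-100-3p. The shares of all genes called in these comparisons were 16.6%, 10.9%, 21.1% and 5.96% in the same order, which is also the background for the lists that follow, and the count under miR-485-3p is near it. Those that rose under miR-99b-5p include AK4, a mitochondrial adenylate kinase gene (log2 0.68), FAM162A (log2 0.58) and MXI1, a MYC antagonist gene (log2 0.50). The 3 that fell under miR-99b-5p were EGLN3, VLDLR (log2 -0.56) and C4orf3 (log2 -0.34). The VLDLR and C4orf3 calls held under all 18 alternatives. FAM162A fell under miR-380-3p (log2 -0.28) and miR-485-3p (log2 -0.66), and LOX, coding for lysyl oxidase, fell under miR-380-3p (log2 -0.97). Against these falls, IGFBP3 (log2 1.64) and BHLHE41 (log2 0.99) rose under miR-380-3p. STC1, coding for stanniocalcin-1, fell under miR-380-3p (log2 -0.90) and rose under miR-100-3p (log2 1.04), and GBE1, coding for the glycogen branching enzyme, fell under miR-485-3p (log2 -1.22). The BHLHE41 and STC1 calls under miR-380-3p were lost without the 3 libraries above 12% mitochondrial counts. Of 10 tested other glycolysis genes out of 19, 3 rose and 2 fell under miR-99b-5p, 1 rose under miR-380-3p, 1 rose and 1 fell under miR-485-3p and 2 fell under miR-100-3p. Among pentose phosphate genes, PGD fell under miR-99b-5p (log2 -0.56) and RPIA rose under miR-380-3p (log2 0.41). Of 11 tested pyruvate entry and oxidation genes out of 12, 1 fell under miR-99b-5p, 2 rose and 1 fell under miR-485-3p and 1 fell under miR-100-3p. No gene of these lists was called under miR-1915-3p or miR-1283 apart from MYCN.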

How the data were processed

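RNA was extracted from cell pellets and 28 libraries were made with a stranded mRNA kit, per the labels' protocols. STAR and the hg19 build are named in the submitters' processing notes, and the counting tool and annotation are not given in the sources used here. The deposited table holds the authors' expected counts per gene, not normalized, of which 10.2% are not whole, with a mean gene length used only for levels per kb. Expected counts were rounded to whole numbers. All 28 libraries were fitted together in edgeR 4.0.16 (R 4.3.3) with TMM scaling, the filterByExpr filter, group means and a quasi-likelihood test, called at an adjusted p under 0.05 over 15058 genes. CPM values use TMM-scaled library sizes. The scripts were tested on simulated data. DESeq2 1.42.0, RLE scaling, other filters on low counts, a fit on the 8 libraries compared, a replicate block, the GC slope as covariate and leaving out each library were alternatives, and 3 more were added after seeing the data: the mitochondrial share as covariate, leaving out the 3 libraries above 12% mitochondrial counts, and leaving out the 3 with the steepest GC slope. The labels do not say that equal replicate numbers mark a shared culture, batch or day. Values by library are given for every member called under at least 1 mimic with an absolute log2 change of at least 0.5, and for the member with the smallest p under each mimic. The 38 members and all lists were chosen with earlier results of these data known. Coordinates and sequences are from GRCh38 references, not from the authors' build, and 3′ UTRs of at least 50 bases were searched.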

Additional observations from a re-analysis of the deposited data

Results flagged for a closer look

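In 9 of 245 sets of 4 libraries (a tested member in a group), 1 library stood apart from the other 3 by the gap test at the 95% level; about 12.2 sets would do so by chance at 1 in 20. In miR-99b-5p replicate 7, SLC16A3 was high at 43.9 CPM (nearest library 21.6 CPM), P4HA2 was high at 17.7 CPM (nearest 15.4 CPM) and ENO2 was low at 384 CPM (nearest 444 CPM). P4HA2 was low in miR-380-3p replicate 4 at 8.68 CPM (nearest 10.8 CPM). In miR-100-3p, BNIP3 was low in replicate 2 at 89.5 CPM (nearest 93.3 CPM) and NDRG1 was high in replicate 1 at 6.14 CPM (nearest 4.58 CPM). GAPDH was high in miR-1283 replicate 4 at 5550 CPM (nearest 5070 CPM). In scrambled control replicate 5, GPI was low at 437 CPM (nearest 538 CPM) and ALDOC was low at 27.8 CPM (nearest 34.3 CPM).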

How the results depend on the processing

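Each comparison was repeated under 10 alternatives and with each of its 8 libraries left out. Of 30 member calls against the control, 14 held under all 18, and no called member or listed gene changed direction under any of them. With the GC slope as covariate, 18 members were called under miR-99b-5p, 4 under miR-100-3p and 1 under miR-1915-3p. Without the 3 libraries above 12% mitochondrial counts, 5 were called under miR-380-3p. Under miR-1915-3p, 1 member was called with only the 8 libraries compared and 1 with a replicate block. Leaving out 1 library gave 6 to 11 called members under miR-99b-5p, 4 to 8 under miR-380-3p, 5 to 9 under miR-485-3p, 2 under miR-100-3p, 0 under miR-1915-3p and miR-1283, and 16 to 21 for miR-99b-5p against miR-380-3p. Fitted with the replicate number as a block, the counts were 13, 9, 8, 2, 1, 0 and 24 in the same order; correlations of same-numbered libraries ran from -0.241 to 0.303, and whether same-numbered libraries share a culture or day is not known from the labels. Over all genes, the GC slope gave 2777 calls under miR-380-3p (1634 without it), 4882 under miR-485-3p (3176), 1763 under miR-100-3p (897) and 182 under miR-1915-3p (37). Fitting only the 8 libraries compared gave 2000 under miR-485-3p and 491 under miR-100-3p, and no filter on low counts gave 564 under miR-100-3p. Without the libraries above 12% mitochondrial counts there were 1013 under miR-380-3p and 552 under miR-100-3p, and DESeq2 called 84 under miR-1915-3p. The lowest counts with 1 library left out were 1056 under miR-380-3p, 551 under miR-100-3p and 20 under miR-1915-3p, and the 3 calls under miR-1283 became 0 or 1 in 9 alternatives. The cause of these moves was not tested. There were 4 libraries a group, and the biological coefficient of variation was 12.2%. The SE of the log2 change under miR-380-3p was 0.32 for SLC16A3, 0.22 for NDRG1 and 0.07 for BNIP3. In the control these genes averaged 16.2, 5.24 and 84.2 CPM in the same order.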
